A study of Mus musculus with 31 samples.

Results

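The 40 genes described here encode proteins that release calcium from the endoplasmic reticulum, admit it through the plasma membrane, pump it away, sense it, or pass its signal on. They were chosen by gene name from a list of calcium release, entry and calmodulin kinase genes, and all 40 were found among the 55401 genes of the count tables. Phospholipase C gamma 2 (PLCγ2) cleaves a membrane lipid into diacylglycerol and inositol trisphosphate (IP3), and IP3 opens the IP3 receptors of the endoplasmic reticulum. Emptied stores are sensed by STIM proteins, which open ORAI channels in the plasma membrane, while calmodulin carries the calcium signal to kinases and to calcineurin, which activates NFAT transcription factors. Microglia use IP3 receptors and ORAI channels downstream of surface receptors, whereas neurons of the forebrain are rich in CaMKII, hippocalcin and the IP3 kinase ITPKA.

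RNA sequencing had been performed on CD11b+ cells taken from whole brain with magnetic beads and on homogenates of temporo-occipital cortex, both from mice of 13 months. Mice carried the PLCγ2-P522R knock-in on both alleles (Pki/ki) or neither (Pwt/wt), and the APP/PS1 transgene (A+) or not (A-), all on a C57BL/6J background. The transgene holds Mo/Hu APPswe and PS1dE9 in 1 construct driven by the mouse prion promoter, and the knock-in was made with CRISPR/Cas9 at the endogenous gene, so that every cell type carries it. The 31 libraries comprised CD11b+ cells of males without the transgene (A-/Pwt/wt, called WT, n = 3, and A-/Pki/ki, called KI, n = 4), CD11b+ cells of females (A-/Pwt/wt, n = 7, A+/Pwt/wt, n = 4, and A+/Pki/ki, n = 4), and cortex of females (A-/Pwt/wt, n = 1, A+/Pwt/wt, n = 4, and A+/Pki/ki, n = 4). Each library was 1 mouse. Mouse number 236 was given both to a CD11b+ A-/Pwt/wt library and to a cortex A+/Pwt/wt library, and both were used as labelled.

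Library totals were 16229831 to 25118180 counts in CD11b+ samples and 25226544 to 43129427 counts in cortex. All 14 microglia markers were higher in CD11b+ cells than in cortex, with a median log2 ratio of 4.78, and all 22 neuron markers were lower, with a median of -4.51. Neuron transcripts were nevertheless present in every CD11b+ library. The summed level of the 22 neuron markers was 166 to 232 CPM (counts scaled to library size) in WT, 450 to 1040 in KI, 283 to 3120 in female A-/Pwt/wt, 603 to 1180 in A+/Pwt/wt and 134 to 1450 in A+/Pki/ki CD11b+ libraries, against 12200 to 13100 in cortex. Mitochondrial transcripts made up 3.97 to 5.02% of counts in WT and 7.4 to 12.8% in KI males. Among the KI libraries, mouse 104 stood apart with a microglia marker sum of 37100 CPM, against 21000 to 27500 CPM in the other 3. In bulk samples, fewer cells of a type and less RNA per cell cannot be told apart.

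Which of the 40 genes are transcribed in the CD11b+ cells themselves was approached through the ratio of CD11b+ cells to cortex, taken in the A+/Pwt/wt mice (n = 4 against 4). IP3 receptors 2 and 3, ORAI1, the calcium pump gene Atp2a3 and all NFAT genes of the list were higher in CD11b+ cells, whereas ryanodine receptors, the neuronal calcium sensors Hpca and Ncald, and most calmodulin kinases were higher in cortex. By edgeR's quasi-likelihood test, 11 members were higher in CD11b+ cells and 28 were lower, against 37.7% and 40.2% of the 18541 genes tested, and 12 had a ratio above 0 (48.6% of all genes). For 11 higher and 28 lower members, the ranges of the 4 CD11b+ and 4 cortex libraries did not overlap, which held for 34.8% and 38.1% of all genes. A member was then placed in the CD11b+ class when it was called with a log2 ratio of at least 1, in the cortex class when called with -1 or less, and otherwise between. This gave 11 CD11b+ members (26% of all genes), 24 cortex members (27.8%) and 5 between. The members next to the boundaries were Itpkc (1.18) inside and Orai2 (0.16) outside the CD11b+ class, and Atp2a2 (-1.19) inside and Stim2 (-0.96) outside the cortex class. The ratio compares different mice, brain areas and preparations, and their parts in it cannot be told apart. Some markers of oligodendrocytes, endothelium and choroid plexus were also higher in the A+/Pwt/wt CD11b+ libraries. Mean levels were 29300 against 1940 CPM in cortex for Mbp, 501 against 51.1 for Flt1 and 1840 against 43.4 for Ttr. Others, such as Mog (10.6 against 41.3 CPM), were lower. A high ratio alone thus does not assign a member to microglia. Nor does a low ratio alone assign a member to other cells, and levels within the cortex class differed. Atp2a2 was at 305 CPM in CD11b+ cells of WT males and 656 CPM in A+/Pwt/wt cortex, whereas Hpca was at 7.12 and 613 CPM.

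Within the IP3 branch, each family was split. Itpr3 was 14.1-fold higher in CD11b+ cells (log2 ratio 3.82, SE 0.12) and Itpr2 7.68-fold higher (2.94, SE 0.15), while Itpr1, the main IP3 receptor of Purkinje and other neurons, was 2.78-fold higher in cortex (-1.48, SE 0.19). Of the IP3 kinases, which convert IP3 to IP4, Itpkb (log2 ratio 1.99) and Itpkc (1.18) were higher in CD11b+ cells, and Itpka was 11.9-fold higher in cortex (-3.57, SE 0.25). The members of a family thus lay in different classes. The 3 ryanodine receptors had the lowest ratios of the list, from -4.20 for Ryr1 to -5.01 for Ryr3, or 18.4-fold to 32.2-fold higher levels in cortex.

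For store-operated entry, Orai1 was 6.71-fold (log2 ratio 2.75, SE 0.12) and Orai3 2.55-fold higher in CD11b+ cells. Orai2 did not pass the test between CD11b+ cells and cortex (0.16, SE 0.13, adjusted p = 0.261), and the sensors Stim1 (-0.46) and Stim2 (-0.96) were lower by less than the class boundary. Atp2a3, which encodes the SERCA3 pump of blood cells, was 8.81-fold higher in CD11b+ cells, and it was the single member of the 7 pumps and exchangers above 0. The transcription factor genes Nfatc1 (13.2-fold), Nfatc2 (4.97-fold) and Nfatc3 (4.27-fold) were higher in CD11b+ cells, whereas their activating phosphatase was not. The calcineurin genes Ppp3ca, Ppp3cb and Ppp3r1 were 6.62-fold, 3.95-fold and 6.7-fold higher in cortex. Among the 9 kinase genes Camk1 alone was higher in CD11b+ cells (3.56-fold, log2 ratio 1.83, SE 0.14).

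The same ratio was taken in other mice, the A+/Pki/ki groups (n = 4 against 4). Here 11 members were higher and 26 lower in CD11b+ cells, against 36.8% and 39.8% of 18954 genes, and 12 had a ratio above 0 (48% of all genes). With 37 members at an unadjusted p under 0.05 (78.2% of all genes), 11 higher and 26 lower members had groups without overlap (33.7% and 39% of all genes). The 11 CD11b+ members (26.3% of all genes) were the same genes, and the cortex class (30% of all genes) held its 24 members plus Stim2 (log2 ratio -1.10). Across the 40 members the log2 ratios of the 2 genotypes had a Pearson correlation of 0.99 and a Spearman correlation of 0.99, a description over genes that share libraries. Itpr1 moved from -1.48 to -2.25, Camk2a from -1.57 to -2.56 and Camk4 from -3.59 to -4.79, with standard errors of 0.46 to 0.75 in A+/Pki/ki. Among the CD11b+ members the largest shift was that of Atp2a3 (3.14 and 2.46).

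Levels of different genes were compared as CPM per kb of exon. In A+/Pwt/wt CD11b+ cells Calm2 had the highest level of the 40 members (217 ± 12.9 CPM per kb, SD, n = 4), followed by Calm3 (152 ± 41.6) and Camk2a (113 ± 35.1). The SDs of Calm3 and Camk2a overlapped, so their order is not resolved. Of the CD11b+ class, Camk1 (38.2 ± 5.21), Orai1 (23.1 ± 2.11) and Orai3 (19.7 ± 1.64) stood highest. The 3 IP3 receptors lay close together in these CD11b+ cells, at 10.3 ± 1.79 for Itpr2, 8.2 ± 2.4 for Itpr1 and 8.09 ± 0.514 for Itpr3. In cortex Itpr1 (23.8 ± 1.99) exceeded Itpr2 (1.41 ± 0.134) and Itpr3 (0.6 ± 0.0845). The closeness was not general, since in WT male CD11b+ cells, lower in neuron markers, Itpr1 was at 4.66, Itpr2 at 11.8 and Itpr3 at 10.3. Mean levels of ryanodine receptors were at most 0.188 CPM per kb in these CD11b+ cells. Calm2 and Calm3 encode the same protein and have processed pseudogenes, so the sharing of their reads is uncertain. Exons of Itpr1, Itpr3, Itpkb, Itpkc, Orai1, Slc8a1, Atp2a2, Atp2b4, Hpca, Ncald, Camk1, Camk4, Nfatc3, Ppp3r1, Ryr1 and Ryr3 overlap those of another gene, and reads there were counted without regard to strand.

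**Figure D1:**
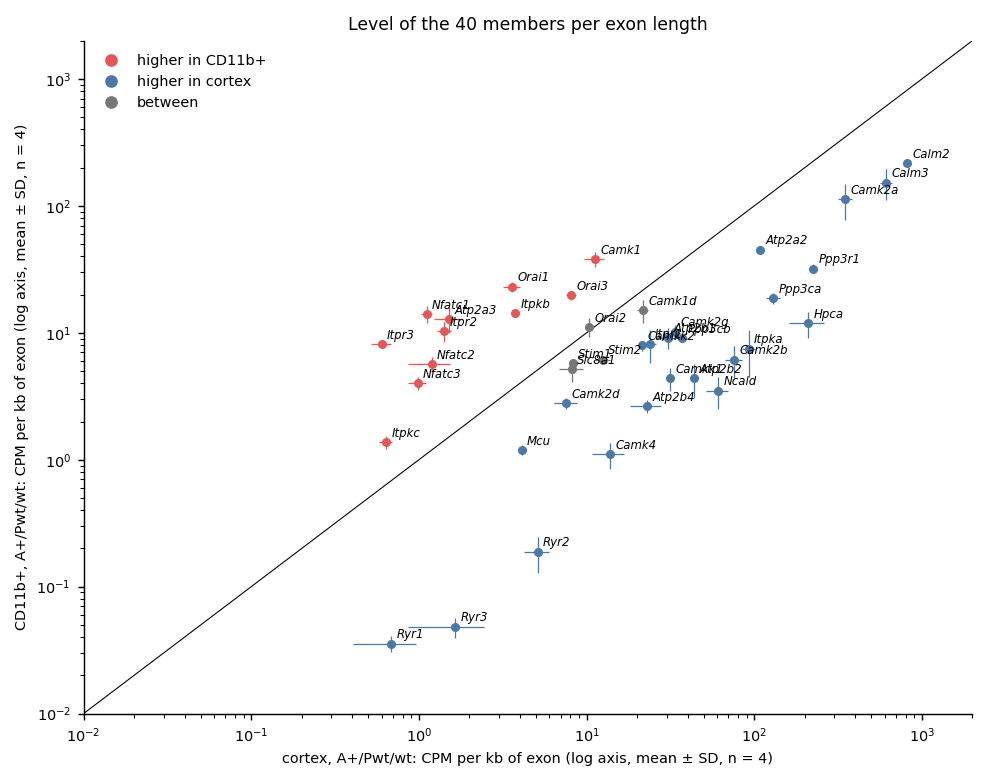
Level of each of the 40 members in CD11b+ cells (vertical) and cortex (horizontal) of A+/Pwt/wt females, as CPM per kb of exon on log axes (mean ± SD, n = 4 each), with a line of equal level. The 11 red CD11b+ members lie above the line, and the 3 ryanodine receptors lie lowest.

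Promoter sequence was read for the members that the comparisons below turn on, 1 from each class, to show how the start sites of genes with opposite ratios look. The 250 bases before the RefSeq start of Itpka (chr2:119742087-119742336, plus strand), Itpr2 (chr6:146502224-146502473, minus strand) and Slc8a1 (chr17:81738388-81738637, minus strand) are given 5′ to 3′ on GRCm38.p6, with CG dinucleotides in capitals.
Itpka: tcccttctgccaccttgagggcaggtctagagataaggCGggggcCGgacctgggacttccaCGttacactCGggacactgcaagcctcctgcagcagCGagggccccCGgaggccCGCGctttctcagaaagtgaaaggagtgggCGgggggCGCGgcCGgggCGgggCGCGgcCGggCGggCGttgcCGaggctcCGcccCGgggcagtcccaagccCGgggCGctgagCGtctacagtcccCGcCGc
Itpr2: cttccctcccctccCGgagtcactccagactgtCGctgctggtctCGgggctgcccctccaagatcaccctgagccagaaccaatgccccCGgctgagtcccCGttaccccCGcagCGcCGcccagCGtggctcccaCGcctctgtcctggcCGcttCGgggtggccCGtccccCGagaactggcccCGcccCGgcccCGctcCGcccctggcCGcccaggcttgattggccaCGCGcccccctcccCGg
Slc8a1: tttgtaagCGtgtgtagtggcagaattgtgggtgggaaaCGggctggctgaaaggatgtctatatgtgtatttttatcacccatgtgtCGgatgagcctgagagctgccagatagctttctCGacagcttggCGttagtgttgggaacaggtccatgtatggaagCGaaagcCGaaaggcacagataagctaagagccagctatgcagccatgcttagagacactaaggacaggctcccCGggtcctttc
The windows of Itpka and Itpr2 held 26 and 22 CG dinucleotides and were 72.8% and 74.4% G and C, while that of Slc8a1 held 8 and was 50.4%. RefSeq windows (250 bases before and 50 after the start) were found for 30 members, with 38 windows in all. In the 250 bases before the start, the median number of CG dinucleotides was 17.5 in the CD11b+ class, 16 in the cortex class and 19.5 between, against 6 over all 32851 promoters, so the classes resembled each other more than the genome at large. In the whole windows, the core of the motif bound by PU.1, a transcription factor of macrophages, GAGGAAGT on either strand, was found in 1 of 12 windows of the CD11b+ class (Nfatc3, chr8:106059443-106059470, plus strand, tgctcacgtgACTTCCTCctcgcagagg, with the match in capitals), in no window of the other classes, and in 3.2% of all promoters. The letters of the CRE (TGACGTCA, 1.79% of all promoters), MEF2 (CTA and TAG with 4 bases between, 3.69%) and REST motifs (its left part, TTCAGCACC, 0.371%) were in 0 of the 38 member windows.

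The main question of the male samples was how the PLCγ2-P522R variant alters CD11b+ cells without amyloid. Of the 40 members, 9 rose and 6 fell in KI compared with WT males, by edgeR's quasi-likelihood test with Benjamini-Hochberg adjustment over 16373 genes. Of all these genes 11.1% were called higher and 5.26% lower, and 19 members had an unadjusted p under 0.05 (33.3% of all genes). All 9 rises were in the cortex class and all 6 falls in the other classes (3 CD11b+ and 3 between). How all called genes divided among these classes is not given, so this split is not shown to be particular to the members. The rises were those of Camk2a, Itpka, Hpca, Ncald, Camk4, Camk2b, Atp2b2, Ryr2 and Calm3, with fold changes from 1.79 for Calm3 to 5.11 for Camk2a, and the falls were those of Slc8a1, Nfatc2, Camk1d, Itpr2, Nfatc1 and Orai2, with WT 1.24-fold to 1.59-fold above KI. The rises were thus larger than the falls. Leaving out 1 mouse gave 6 (without WT mouse 102) to 13 rises (without KI mouse 104) and 1 (without WT mouse 102 or 94), 3 (without WT mouse 101 or KI mouse 139) or up to 10 falls (without KI mouse 104), and with no low-count filter there were 10 rises and 3 falls. The shares of all genes moved with these counts, at 4.84% higher and 0.685% lower without mouse 102, 6.28% and 0.608% without mouse 94, 20.2% and 13.3% without mouse 104, and 8.47% and 1.97% with no low-count filter. Over the 40 members the median log2FC was 0.05, with 22 above 0 (49.8% of all genes were). The classes were not used to choose any male library.

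**Figure D2:**
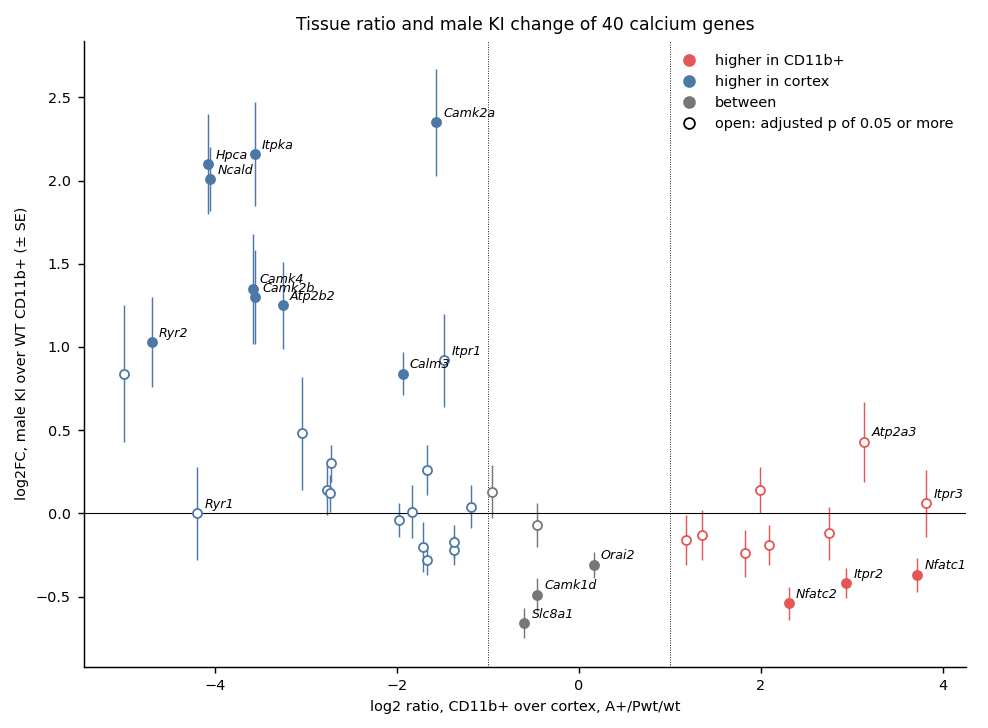
Log2 ratio of CD11b+ cells to cortex in A+/Pwt/wt females (horizontal) and log2FC ± SE of KI over WT male CD11b+ cells (vertical) for the 40 members, with filled points at an adjusted p under 0.05 and dotted lines at the class boundaries. The 9 filled points above 0 lie to the left of the boundary at -1, and the 6 filled points below 0 lie to the right of it.

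Camk2a, the alpha subunit of CaMKII, was at 148, 102 and 99.5 CPM in the WT mice 101, 102 and 94 and at 412, 741, 862 and 376 CPM in the KI mice 104, 136, 139 and 84. All 4 KI values lay above the WT range, with mice 136 and 139 highest. The log2FC was 2.35 (SE 0.32, adjusted p = 0.00383). Camk2b, the beta subunit, was at 21.8, 17.4 and 20.9 CPM in WT and at 42.5, 55.5, 72 and 28 in KI, in the same order of mice. Its log2FC was 1.30 (SE 0.28, adjusted p = 0.0146), and the call was lost without WT mouse 102 (1.22). The 2 other CaMKII subunits did not pass the test (Camk2d -0.22, adjusted p = 0.128, and Camk2g 0.26, adjusted p = 0.263).

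Camk4, a nuclear kinase of neurons and T cells, was near the limit of detection at 0.881, 1.26 and 0.969 CPM in WT and 2.16, 3.7, 2.94 and 1.86 CPM in KI. The groups did not overlap, and the log2FC was 1.35 (SE 0.33, adjusted p = 0.0246). This call rested on few reads and was lost in 5 of 7 fits that left out 1 mouse, those without WT mouse 101, 102 or 94 or KI mouse 136 or 139, with log2FC from 1.15 to 1.53. The upstream kinases Camkk1 (0.14) and Camkk2 (-0.17) were not called.

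Itpka was at 2.99, 1.97 and 1.4 CPM in WT and at 8.76, 10.2, 12.3 and 6.69 CPM in KI. The lowest KI mouse, 84, was above the highest WT mouse, 101, and the log2FC was 2.16 (SE 0.31, adjusted p = 0.00389). The other IP3 kinases of the list, which belonged to the CD11b+ class, had log2FC of 0.14 (Itpkb, adjusted p = 0.512) and -0.16 (Itpkc, adjusted p = 0.487). Itpr1 was at 85.5, 81.7 and 88.9 CPM in WT and at 81.4, 230, 181 and 154 in KI. Mouse 104 lay at the WT level while the 3 others were above it, and the log2FC of 0.92 (SE 0.28) missed the threshold (adjusted p = 0.0518). Without mouse 104 it was 1.14 (adjusted p = 0.00148), and it also passed by DESeq2's Wald test (adjusted p = 0.00977) and with no filter on low counts (adjusted p = 0.000249). Itpka, Itpr1, Camk2a, Camk2b and Camk4 are the genes that the study named for this pathway on these samples, so their direction is not independent evidence.

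Itpr2, the IP3 receptor with the highest level per kb of exon in WT cells (11.8 CPM per kb, against 10.3 for Itpr3 and 4.66 for Itpr1), went the other way. It was at 176, 174 and 175 CPM in WT and 144, 126, 123 and 130 CPM in KI. The 3 WT mice were almost identical and all KI mice were below them, with a log2FC of -0.42 (SE 0.09, adjusted p = 0.0164). The call was lost without WT mouse 101, 102 or 94 or KI mouse 139 (log2FC -0.40 to -0.37) and with no low-count filter (-0.38, adjusted p = 0.0666). Itpr3 did not pass the test (0.06, SE 0.20, adjusted p = 0.851).

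Hpca and Ncald encode hippocalcin and neurocalcin delta, EF-hand sensors of neurons. Hpca was at 8.16, 5.41 and 7.8 CPM in WT and at 23, 35.6, 44.1 and 19.6 in KI (log2FC 2.10, SE 0.30, adjusted p = 0.00392). Ncald was at 6.63, 6.34 and 6.25 CPM in WT and 25.3, 24.5, 34.3 and 19.3 in KI (2.01, SE 0.19, adjusted p = 0.00374). In both, every KI mouse was above every WT mouse and mouse 139 was highest. Calm3 rose from 209, 192 and 201 to 365, 373, 414 and 285 CPM (0.84, SE 0.13, adjusted p = 0.00577), whereas Calm2, at 319, 327 and 337 CPM in WT and 431, 270, 304 and 314 in KI, did not pass (0.01, adjusted p = 0.977). Mouse 104 was the highest of the KI mice for Calm2 and 3 of them lay below the WT range.

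Of the pumps, Atp2b2, which encodes the plasma membrane pump PMCA2 of neurons, was at 22.5, 27.1 and 25.6 CPM in WT and 34.5, 76.6, 79 and 49.8 CPM in KI (log2FC 1.25, SE 0.26, adjusted p = 0.014). Ryr2, the main ryanodine receptor of heart and brain, was at 2.88, 2.08 and 1.65 CPM in WT and 3.3, 4.87, 5.5 and 4.35 in KI (1.03, SE 0.27, adjusted p = 0.0331). The Ryr2 groups were close, and its call was lost without WT mouse 102 or 94 or KI mouse 136 or 139 (0.89 to 1.02). Atp2a2 (0.04), Atp2a3 (0.43), Atp2b1 (-0.28), Atp2b4 (0.48) and the mitochondrial uniporter gene Mcu (-0.20) were not called, with adjusted p from 0.0654 for Atp2b1 to 0.842 for Atp2a2.

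Slc8a1, the sodium-calcium exchanger NCX1 (chr17:81373105-81738377, minus strand, GRCm38), had the largest fall. It was at 136, 125 and 137 CPM in WT and at 88.1, 79.3, 80.7 and 86.8 CPM in KI. The KI range lay wholly below the WT range, and the log2FC was -0.66 (SE 0.09, adjusted p = 0.00383). The call held in all 7 fits that left out 1 mouse (-0.69 to -0.60). Slc8a1 was in the class between, being 1.52-fold higher in cortex than in CD11b+ cells (log2 ratio -0.60, SE 0.18).

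Nfatc2 was at 92.9, 101 and 97.8 CPM in WT and at 64.9, 63.5, 61.8 and 76.8 CPM in KI (log2FC -0.54, SE 0.10, adjusted p = 0.00922). Nfatc1 was at 131, 131 and 125 CPM in WT and at 96.8, 99.1, 91.2 and 111 in KI (-0.37, SE 0.10, adjusted p = 0.0288). For both NFAT genes mouse 84 was the KI mouse nearest to WT, and no KI mouse reached the WT range. Nfatc3 (-0.19, adjusted p = 0.292) and the calcineurin genes Ppp3ca (0.30, adjusted p = 0.0959), Ppp3cb (-0.04) and Ppp3r1 (0.12) were not called. Without WT mouse 102 or 94 the call of Nfatc2 was lost (-0.49 and -0.51), and that of Nfatc1 was lost without any 1 of WT mice 101, 102 and 94 and KI mice 136 and 139 (-0.37 to -0.32) and with no low-count filter (-0.33, adjusted p = 0.125).

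Camk1d, a kinase activated by CaMKK in leukocytes, was at 126, 135 and 132 CPM in WT and 80.8, 97.1, 95.2 and 98.8 CPM in KI (log2FC -0.49, SE 0.10, adjusted p = 0.0106). Orai2 was at 84.1, 85.7 and 78.1 CPM in WT and 65.8, 66.4, 68.4 and 66.5 CPM in KI (-0.31, SE 0.08, adjusted p = 0.033). The groups of both genes were separate, and the 4 KI values of Orai2 lay between 65.8 and 68.4 CPM. The call of Camk1d was lost without WT mouse 102 or 94 (-0.45 and -0.46), and that of Orai2 in every fit without 1 mouse except the one without KI mouse 104, and with no low-count filter (-0.27, adjusted p = 0.236). Stim1 (-0.07), Stim2 (0.13), Orai1 (-0.12) and Orai3 (-0.13) were not called. Over all 40 members, 10 were higher and 8 lower in KI with no overlap of the groups, against 15.4% and 15.4% of all genes.

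**Figure D3:**
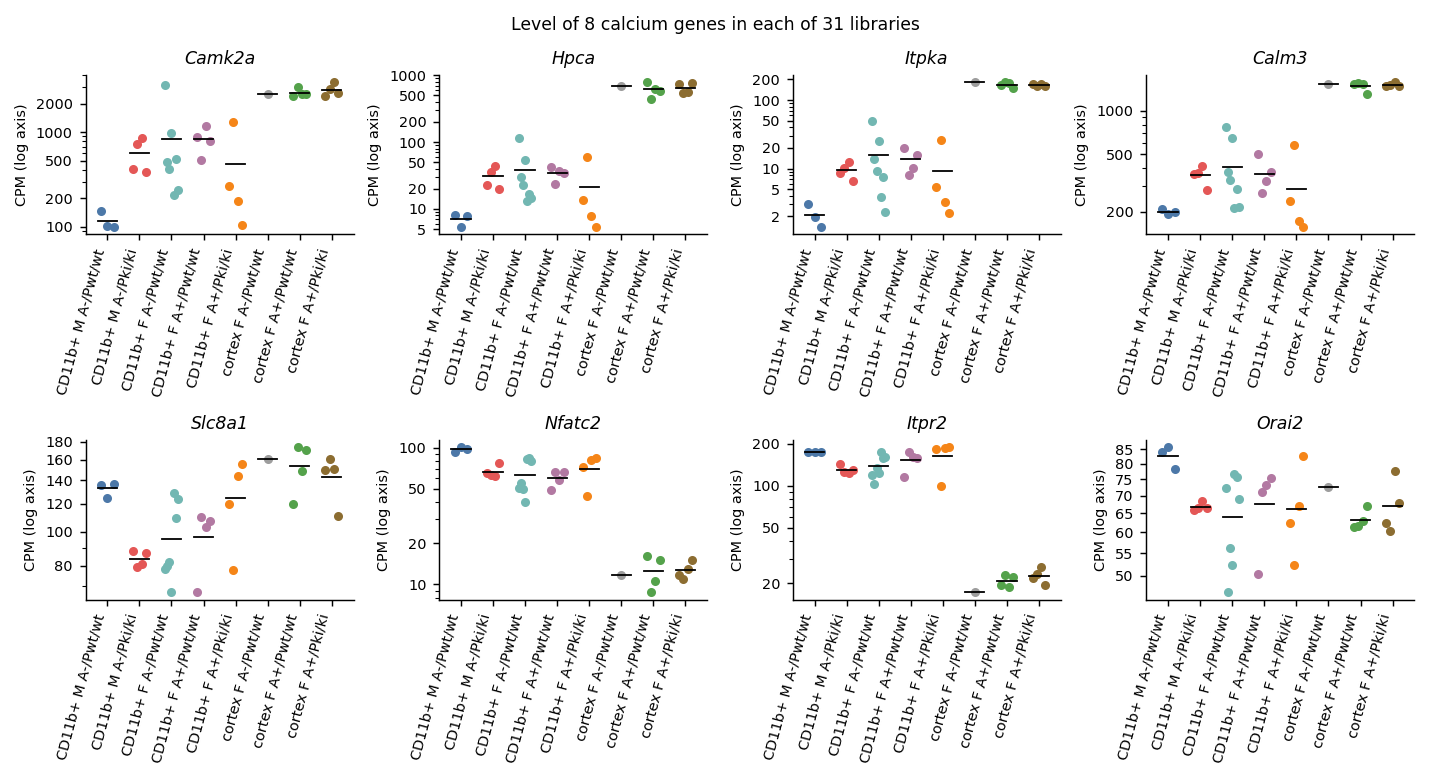
CPM (log axis) of 8 members in each of the 31 libraries by group (M, male, F, female), with a line at the group mean. Camk2a, Hpca, Itpka and Calm3 are higher in KI than WT males and vary widely among females, and Slc8a1, Nfatc2, Itpr2 and Orai2 are lower in KI than WT males.

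By class, 18 of 24 cortex members had a log2FC above 0 (median 0.39). Below 0 were 8 of 11 CD11b+ members (median -0.16) and 4 of 5 between (median -0.31). Shares of all genes by class are not given beside these counts. Across the 40 members, log2FC and log2 ratio had a Pearson correlation of -0.58 and a Spearman correlation of -0.65, given as a description. Mean log2 CPM of the 40 members was 5.32 in WT and 5.64 in KI, with a pooled SD of 0.11 between mice. The cortex members rose from 4.63 to 5.28 (SD 0.17), while the CD11b+ members went from 6.40 to 6.24 (SD 0.06) and those between from 6.30 to 6.02 (SD 0.08). The score of the whole list thus went up while its classes moved in opposite directions.

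Markers of other cell types moved with these genes. All 22 neuron markers were higher in KI than WT (median log2FC 2.10), among them Snap25 (2.07), Slc17a7 (2.29) and Map2 (1.95), as were 16 of 16 astrocyte markers (median 1.20, Slc1a2 1.52, Aldoc 1.53, S100b 0.97), and all of them were called. All 10 oligodendrocyte (median 1.06, 6 called), 10 endothelial and mural (0.82, 5 called) and 5 oligodendrocyte precursor markers (0.54, 1 called) had a log2FC above 0. No marker of neurons or astrocytes was at 0 in every library of a group. Summed astrocyte markers were at 983 to 1250 CPM in WT and 1780 to 3340 CPM in KI, and summed oligodendrocyte markers at 18600 to 23300 and 26500 to 61100 CPM. Of the 14 microglia markers, 14 had a log2FC below 0 (median -0.36, Csf1r -0.44, C1qa -0.07), with Sall1 called (-0.53, adjusted p = 0.0239), and their sum was 34100 to 35700 CPM in WT and 21000 to 37100 CPM in KI. Border macrophage (0 of 7), neutrophil (0 of 8), choroid plexus and ependyma (0 of 5) and lymphocyte markers (0 of 1 tested) were not called.

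The 9 members that rose summed to 355 to 423 CPM in WT and 791 to 1530 CPM in KI. Divided by the summed neuron markers of the same library, they stood at 1.82 to 2.14 in WT and 1.46 to 1.76 in KI. Every KI mouse was below every WT mouse. Calm3, which rose least of the 9, made up 192 to 209 CPM of the WT sums and 285 to 414 CPM of the KI sums. This quotient thus weighs Calm3 heavily, and its order does not describe each of the 9 members. In the female CD11b+ groups this quotient was 1.23 to 2.34, and in cortex 0.527 to 0.613. For Camk2a alone the order was the opposite, at 0.579 to 0.638 in WT and 0.659 to 0.836 in KI males, again without overlap. It was 0.577 to 1.01 in the female CD11b+ groups and 0.19 to 0.267 in cortex. The 6 members that fell, not divided by any marker, summed to 744 to 753 CPM in WT and 520 to 571 CPM in KI, without overlap. Microglia markers of KI mice 136, 139 and 84 summed to 21000, 23700 and 27500 CPM, below the 34100 to 35700 CPM of WT. In KI mouse 104 they summed to 37100 CPM. Whether the 6 members fell more than the microglia markers was not tested. The 9 and the 6 members were chosen by their calls in these same libraries, so the separation of their sums follows from that choice. These sums and quotients are descriptions only. The part of other cell types in the male differences was not tested.

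**Figure D4:**
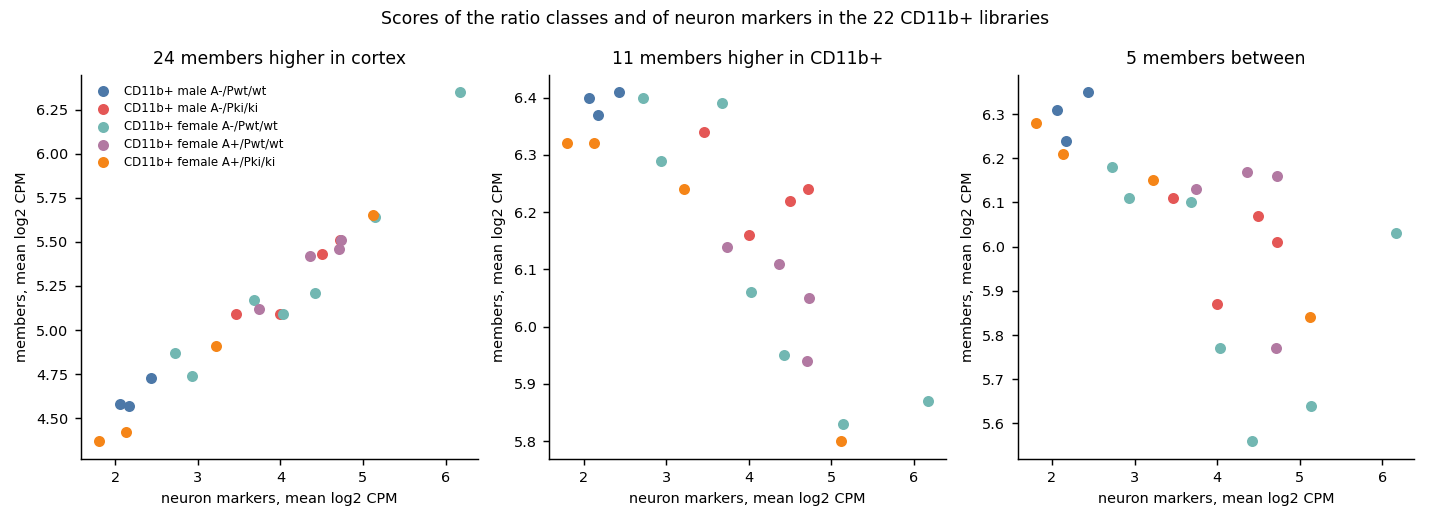
Mean log2 CPM of the cortex (24), CD11b+ (11) and between (5) members (vertical) against that of the 22 neuron markers (horizontal) in each of the 22 CD11b+ libraries, coloured by group. The cortex members run from 4.37 in the library lowest in neuron markers (1.80) to 6.35 in the highest (6.17).

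Across the CD11b+ libraries of both sexes, the score of the cortex members was lowest in A+/Pki/ki mouse 405 (4.37) and highest in A-/Pwt/wt mouse 223 (6.35), which were also the lowest (1.80) and highest (6.17) for neuron markers. Mitochondrial transcripts were 3.45% and 24.5% of counts in these libraries. The score of the CD11b+ members was 6.32 in mouse 405 and 5.87 in mouse 223. CPM are relative to the total of each library, so the scores of the classes are not independent of each other.

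A list of 62 other calcium genes, among them channels, buffers, sensors and calmodulin-binding proteins, was examined in the same way in males. Of these, 22 rose and 3 fell in KI (median log2FC 0.39), against 11.1% and 5.26% of all genes. The cortex class held 28 of the 62, against 27.8% of all genes tested for the ratio, so the list was richer in that class. All 28 in the cortex class had a log2FC above 0 (49.8% of all genes), and 18 were called (median 1.42). Of 14 in the CD11b+ class 0 rose and 1 fell, with 4 at an unadjusted p under 0.05 (33.3% of all genes). As given above, neuron markers rose as well. Rises included the calmodulin-kinase-like gene Camkv (2.48, SE 0.32), the sensor Hpcal4 (2.31, SE 0.31) and the calmodulin-binding gene Nrgn (2.09, SE 0.27). The falls were Trpm2 (-0.60, SE 0.12, adjusted p = 0.0121), a calcium channel gated by oxidative stress, the channel kinase Trpm7 (-0.37, SE 0.10, adjusted p = 0.0374) and the L-type channel gene Cacna1d (-0.59, SE 0.12, adjusted p = 0.0109).

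In females with amyloid, the comparison of A+/Pki/ki with A+/Pwt/wt CD11b+ cells asked for the effect of the variant in mice with the transgene. By edgeR 0 of the 40 members were called in either direction (0% of 17039 genes), and 1 had an unadjusted p under 0.05 (3.37% of all genes). DESeq2's Wald test called 0 members as well, and of all genes 0.0117% higher and 0.0293% lower. The gene with that p was Atp2b4, the plasma membrane pump PMCA4, at 25.1, 27.8, 22.5 and 16.9 CPM in the A+/Pki/ki mice 244, 335, 394 and 405 and at 34.4, 28.2, 36.4 and 30.9 CPM in the A+/Pwt/wt mice 331, 367, 375 and 380. The groups were adjacent without overlap, and the log2FC was -0.52 (SE 0.17, adjusted p = 0.853). It was the 1 member whose groups did not overlap (1.26% of all genes were higher and 0.986% lower without overlap), and 16 members had a log2FC above 0 (50.7% of all genes).

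Camk2a was at 267, 1290, 187 and 104 CPM in A+/Pki/ki and at 891, 511, 1150 and 813 CPM in A+/Pwt/wt. Mouse 335 was above all A+/Pwt/wt mice and the 3 others below them, so that the log2FC of -0.88 had an SE of 0.74 (adjusted p = 0.853). Without mouse 335 it was -2.18 (adjusted p = 0.0754), with Itpka at -1.91 (adjusted p = 0.0772), Itpr1 at -1.39 (adjusted p = 0.0789) and Camk2b at -0.77 (adjusted p = 0.164), and 27.3% of all genes then had an unadjusted p under 0.05, though 0 were called. Itpr1 was at 82.9, 178, 43.7 and 46.3 CPM against 151, 92.9, 200 and 157 (-0.80, SE 0.47, adjusted p = 0.853). Itpka (-0.59, SE 0.75), Camk2b (-0.41, SE 0.37) and Camk4 (-1.33, SE 0.74) had values spread in the same manner, with adjusted p of 0.853 to 0.854 and mouse 335 highest in A+/Pki/ki for Itpka and Camk2b. Of the 24 cortex members 19 were below 0 (median -0.40), and of the 11 CD11b+ members 9 were above 0 (median 0.09). The classes had been drawn with the A+/Pwt/wt libraries, so these medians are not independent of them.

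The mean score of the cortex members was 4.84 in A+/Pki/ki and 5.38 in A+/Pwt/wt, with a pooled SD of 0.44, and that of the CD11b+ members 6.17 and 6.06 (SD 0.19), both within or near the spread between mice. All 22 neuron and 16 astrocyte markers were below 0 (medians -0.82 and -0.69, 0 called and 0 at an unadjusted p under 0.05), and the 14 microglia markers were above 0 (median 0.22, 0 called). The 8 neutrophil markers were above 0 (median 2.48), all at an unadjusted p under 0.05 and none called, with sums of 41.6 to 1780 CPM in A+/Pki/ki and 48.1 to 139 CPM in A+/Pwt/wt. The part of these markers in the members' values was not tested.

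In temporo-occipital cortex the 40 members differed little between A+/Pki/ki and A+/Pwt/wt. By edgeR 0 were called (0% of 18640 genes), 1 had an unadjusted p under 0.05 (2.76% of all genes), and log2FC ran from -0.14 to 0.44 with a median of 0.00 and a median SE of 0.09. A log2FC above 0 was found for 21 members (49.3% of all genes), and the groups overlapped for all 40 (0.939% of all genes were higher and 0.907% lower without overlap). DESeq2's Wald test called 0 members too, and of all genes 0.0215% higher and 0.0376% lower. The gene at that unadjusted p was Atp2a3, at 8.4, 11.2, 15.5 and 8.71 CPM in A+/Pki/ki and 6.27, 7.54, 8.24 and 10 CPM in A+/Pwt/wt, with overlapping groups (0.44, SE 0.19, adjusted p = 1). Nfatc1 (0.14, SE 0.09) and Itpkb (0.11, SE 0.08) were next by p. Camk2a was at 2390, 2880, 3400 and 2590 CPM against 2390, 2960, 2530 and 2540 CPM (0.10, SE 0.11), and Itpr1 (-0.03), Itpka (-0.04), Camk2b (0.04) and Camk4 (-0.14) had log2FC near 0. Neuron markers were near 0 too (median log2FC -0.01, 0 of 22 called). In the single A-/Pwt/wt cortex library Camk2a was at 2530 CPM, Itpka at 185 CPM and Itpr1 at 484 CPM, without a replicate.

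**Figure D5:**
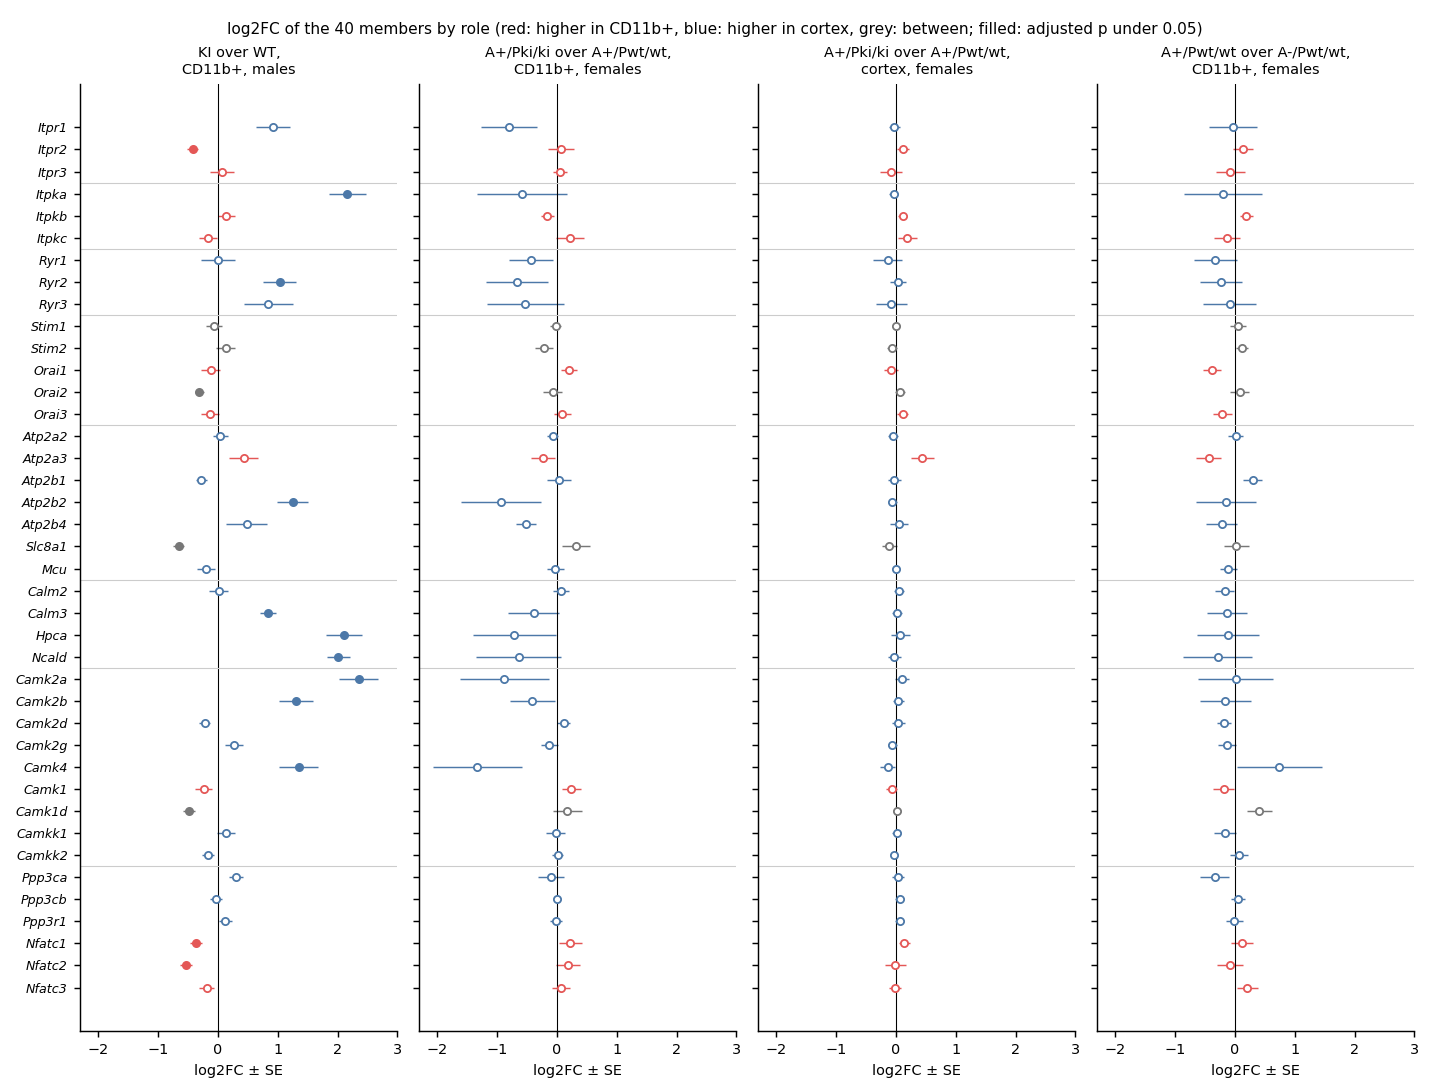
log2FC ± SE of the 40 members, grouped by role, in 4 comparisons, with points coloured by class and filled at an adjusted p under 0.05. Filled points occur in the male comparison, 9 above and 6 below 0, and the cortex comparison stays between -0.14 and 0.44.

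The effect of the transgene was read from A+/Pwt/wt (n = 4) against A-/Pwt/wt (n = 7) CD11b+ cells of females, whose column names carry different tags that the labels do not explain, so that transgene and tag cannot be told apart. Here 0 members were called by edgeR, against 1.01% of 17355 genes higher and 0.282% lower, or by DESeq2, against 2.14% and 1.53%, and 1 had an unadjusted p under 0.05 (10.1% of all genes). A log2FC above 0 was found for 15 members (44.5% of all genes), and 0 had groups without overlap (2.02% of all genes were higher and 1.2% lower in that way). Orai1 was at 46.6, 54.8, 58.1 and 53 CPM in A+/Pwt/wt and at 48.3 to 79.4 CPM in A-/Pwt/wt, with a median of 70.5. Of the A-/Pwt/wt mice, 223 (48.3) lay among the A+/Pwt/wt values and the 6 others above them. The log2FC was -0.38 (SE 0.15, adjusted p = 0.347), and without mouse 223 it was -0.47 and passed the test (adjusted p = 0.0269). In that fit 1.41% of all genes were called higher and 1.47% lower, so more genes were called as a whole. Atp2a3 (-0.44, SE 0.21, adjusted p = 0.518) and Camk1d (0.41, SE 0.21, adjusted p = 0.574) followed by p.

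The genes named by the study varied widely among A-/Pwt/wt females. Camk2a was at 218 to 3110 CPM with a median of 481, against 511 to 1150 CPM in A+/Pwt/wt, and its log2FC of 0.01 had an SE of 0.62. Mouse 223 held the highest value and the next was 983. The log2FC of Itpr1 was -0.03 (SE 0.40), of Itpka -0.20 (SE 0.65), of Camk2b -0.16 (SE 0.43) and of Camk4 0.74 (SE 0.71), with adjusted p from 0.88 for Camk4 to 0.999 for Camk2a. Nfatc2 was at 40 to 84.5 CPM and Slc8a1 at 67.1 to 129 CPM in A-/Pwt/wt, where mice 242, 243 and 245 had the 3 highest values of both. Neuron markers had a median log2FC of -0.19 (0 of 22 called) and microglia markers of -0.06 (0 of 14 called).

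Whether the variant acted differently in A- males and A+ females was tested as an interaction over 17619 genes, with sex, transgene and the tag of the column names differing together. By edgeR 0 members and 0% of all genes passed, and 16 members had an unadjusted p under 0.05 (26.5% of all genes) and 22 a difference above 0 (51% of all genes). The largest differences of log2FC (male minus female) were those of Camk2a (3.25, SE 0.92, adjusted p = 0.143) and Hpca (2.83, SE 0.88), and the lowest that of Slc8a1 (-0.96, SE 0.27, adjusted p = 0.143). DESeq2's Wald test called 6 members higher and 1 lower (4.64% and 2.08% of all genes). Without A+/Pki/ki mouse 335, edgeR called 12 higher and 9 lower (19.9% and 15.6% of all genes), with Camk2a at 4.50 and Slc8a1 at -1.21, so the outcome turned on that library. The 22 neuron markers all had an interaction above 0 (median 2.91, 22 at an unadjusted p under 0.05) and the 14 microglia markers one below 0 (median -0.55), and their part was not tested.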

How the data were processed

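RNA of 31 libraries was sequenced as paired reads after poly(A) selection. The authors trimmed reads with Trimmomatic 0.39, aligned them with STAR 2.7.9a to GRCm38 with a Gencode annotation, and counted unique reads per gene without strand with featureCounts 2.12.0 in R 4.2.2, with FastQC 0.11.7 for quality (per the submitters' processing notes). The deposited tables hold these raw counts in 3 files; the authors' variance-stabilized tables were not used.

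Counts were fitted with edgeR 4.0.16 in R 4.3.3 (quasi-likelihood test, two-sided, TMM, at least 10 counts in at least 3 fitted libraries), with p-values adjusted over all genes tested by Benjamini-Hochberg and called at 0.05. DESeq2 1.42.0 was an alternative. All 40 members passed the filter in every comparison. Levels per mouse are CPM scaled by TMM over all 31 libraries, list scores average the log2 CPM of their genes (prior count 2), and length-scaled levels and gene positions use exons of Gencode M21 on GRCm38. Joining CD11b+ and cortex counts by gene identifier gave the ratios. The steps were tested on simulated data.

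Members and lists were chosen with earlier results of these data known. Full statistics are given for the 5 genes the study names, up to 8 called members of largest rise and fall, Calm3 as a further called member, and, where none was called, the 3 of smallest p. Up to 6 other calcium genes called and the most abundant markers are named, Trpm2, Trpm7 and Cacna1d as the 3 that fell. Some genes these rules select are not reported here. Promoters are from RefSeq, GRCm38.p6.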

Additional observations from a re-analysis of the deposited data

Results flagged for a closer look

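Dixon's test at the 95% level was applied to 120 sets of 4 to 7 libraries (the named members and the list scores in each group). Of these, 12 held a library far from the rest, where chance gives about 1 in 20 for independent sets of normal values. The sets share libraries and genes, so the count does not show an excess over chance. Itpr1 was at 420 CPM in CD11b+ A-/Pwt/wt mouse 223 (others 85.6 to 164), and Camk4 was at 0 CPM in A-/Pwt/wt mouse 245 (others 1.18 to 6.65). Camk4 was near the limit of detection, and on the CPM scale its 0 was close to the next value, so this flag rests on few reads. In A+/Pwt/wt CD11b+ cells, Atp2b2 was at 31.2 CPM in mouse 367 (others 60 to 65.9), while Slc8a1 at 67.1 CPM (others 103 to 110) and Orai2 at 50.5 CPM (others 71 to 75.2) were low in mouse 331. In A+/Pki/ki CD11b+ cells, Camk1d at 77 CPM (others 139 to 156) and Itpr2 at 100 CPM (others 185 to 190) were low in mouse 335. In cortex of A+/Pki/ki, Camk2b was at 653 CPM in mouse 203 (others 739 to 740).

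Of the scores, the mean log2 CPM of all 40 members was 6.18 in A-/Pwt/wt mouse 223 (others 5.34 to 5.70). The 11 CD11b+ members were at 5.80 in A+/Pki/ki mouse 335 (others 6.24 to 6.32), the 5 members between at 5.77 in A+/Pwt/wt mouse 331 (others 6.13 to 6.17), and the 24 cortex members at 8.25 in cortex of A+/Pki/ki mouse 216 (others 8.13 to 8.15). Mitochondrial transcripts made up 24.5% of counts in mouse 223, 19.4% in mouse 335 and 15.6% in mouse 331.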

How the results depend on the processing

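No paired analysis was possible because the groups compared shared no mouse number, apart from mouse 236, which the labels give to different genotypes. The number of members that fell in KI males was 3 with no low-count filter and 1 to 10 when 1 mouse was left out, against 6, and the number that rose was 6 to 13, against 9. In the transgene comparison 0 to 1 members fell without 1 mouse. The 1 fall was without mouse 223, where 1.47% of all genes were called lower, against 0.282% in the main fit. For the interaction, DESeq2's Wald test called 6 higher and 1 lower, and leaving out 1 mouse gave 0 to 12 higher and 0 to 9 lower. Scaling by total counts in place of TMM gave male score differences of 0.20 for all 40 members, -0.27 for the CD11b+ class and -0.40 between. At a log2 ratio of 2 the CD11b+, cortex and between classes held 7, 13 and 20 members. With total counts Itpkc and Orai3 left the CD11b+ class, and Stim2 joined the cortex class under that and several other settings. The other 375 values of list counts, scores and classes under alternatives lay within 1.5 times the reported count or within 1 SD between mice of the reported score difference, and the cause of the differences was not tested.

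Single genes whose direction turned had reported log2FC of -0.14 to 0.04 in cortex and of -0.20 to 0.01 for the transgene, none of them called. For the transgene, the log2FC of Camk2a was -0.02 with DESeq2 size factors, -0.02 by DESeq2's Wald test and -0.01 with all groups in the fit, against 0.01. Leaving out 1 mouse gave -0.19 to 0.79 for Camk2a, -0.21 to 0.41 for Itpr1, -0.47 to 0.36 for Itpka and -0.30 to 0.20 for Camk2b, where the highest values of Itpr1, Itpka and Camk2b were those without mouse 223. In cortex it gave -0.10 to 0.03 for Itpr1, -0.09 to 0.01 for Itpka, -0.02 to 0.11 for Camk2b and -0.23 to 0.00 for Camk4.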
